A study of Mus musculus with 2 samples.

Results

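The enzymes that build haem were followed through the pathway in order: Alas1, Alas2, Alad, Uros, Urod, Cpox, Ppox and Fech. They were taken by exact gene name from the annotation carried by the arrays, with every probe kept. This gave 8 genes and 10 probes, because Alas1 and Fech had 2 probes each. Of all 41174 probes, 24430 were kept for testing because at least 1 dye, the same one each time, was well above background on both arrays. All 10 enzyme probes were among them, and the kept probes stood for 16585 genes and transcripts.

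G1E is a mouse erythroid line that lacks GATA-1, the transcription factor that drives red cell maturation, and G1E-ER-GATA-1 carries a GATA-1 that β-estradiol switches on. The cells received either siRNA for ETO2, a corepressor whose gene is Cbfa2t3, or control siRNA, and both groups then had β-estradiol for 24 h. All RNA therefore came from GATA-1-null cells with an estradiol-activated GATA-1, and the groups differed in the siRNA and in the dye. On each of 2 two-colour Agilent arrays the ETO2 siRNA RNA carried Cy3 (green) and the control siRNA RNA carried Cy5 (red), with 1.2 µg of total RNA per dye. The dyes were not swapped, so any dye effect of a probe is part of its ratio. The arrays lay on the same slide and were scanned together. They are numbered as replicates, but separate cultures are not named, so p-values measure no more than how far these arrays lie apart, which may be technical. RNA was pooled over all cells of a dish, so that fewer cells of a type and less RNA per cell cannot be told apart.

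Haem is made from glycine and succinyl-CoA. ALA synthase joins them in the mitochondrion to 5-aminolaevulinic acid (ALA), and this first step is rate-limiting. Alas1 encodes the form used by all tissues, which haem represses, and Alas2 the X-linked erythroid form, whose translation is held back by iron regulatory proteins when iron is short. ALA leaves for the cytosol, where Alad joins ALA molecules into porphobilinogen, Uros closes the chain of pyrroles into the uroporphyrinogen ring and Urod trims its side chains. The ring then returns to the mitochondrion, where Cpox and Ppox oxidise it to protoporphyrin and Fech inserts the iron. A maturing red cell makes most of the haem of the body, for haemoglobin.

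Median local background lay between 44 and 47 scanner units, and the median spot read 82.8 and 77.5 units in the ETO2 siRNA channel against 105 and 105 in the control channel. The control channel was saturated, that is at the scanner's upper limit, at 471 and 495 spots, against 39 and 11 in the ETO2 siRNA channel. Cbfa2t3, the target of the siRNA, was lower on both arrays. On its brighter probe the log2 ratio was -0.42 ± 0.05 (SD, n = 2), or 74.6% of control, with a limma adjusted p of 9.98e-05. The dimmer probe showed a smaller fall, -0.23 ± 0.0046, or 85.6% of control (adjusted p = 0.0105). On the scanner software's own processed signals the brighter probe stood at -0.37 with an adjusted p of 0.0508. Of the erythroid markers, 9 of 10 were on the array, all well above background in both channels, and 8 were higher and 1 (Ank1) lower after ETO2 siRNA. Their summed normalized signal was 252603 and 266131 units against 144778 and 140018 in control, with Hba-a1 saturated in both channels. Slc4a1 had the highest log2 ratio of these markers, 2.88. The labels also call the cells ES cells, and of 7 ES cell markers 4 (Nanog, Zfp42, Sox2 and Dppa3) were not well above background in either channel. Pou5f1 was well above background on 1 array, and Tdgf1 and Utf1 were measured in both channels, Utf1 being called lower at -0.23 (adjusted p = 0.0128). Summed megakaryocyte markers read 12488 and 14644 against 8262 and 9855, with Gp9 and Pf4 higher and Ppbp not well above background. Sums for granulocyte and macrophage, mast cell, lymphocyte, ES cell and fibroblast markers were each smaller than the megakaryocyte sum in both groups. The highest of them were mast cell in the control channel, at 838 and 818 against 621 and 641 after ETO2 siRNA, and lymphocyte after ETO2 siRNA, at 653 and 642 against 728 and 762 in control. The mast cell markers did not move together: Hdc was called lower at -1.38, while Mcpt1 was called higher at 0.66. Mcpt2 was also called higher, with a control not well above background, and Cpa3 and Fcer1a were not called. The sums cover from 2 to 9 kept markers, whose probes bind with different strength. Their sizes therefore do not rank the cell types by amount of transcript. The part of these markers in the enzyme results was not tested.

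Transcripts of the haem synthesis enzymes were higher after ETO2 siRNA for most members of the pathway with loess normalization, though not with median centring. With loess 7 of the 8 genes were called higher and none lower, the exception being Alas1 on its brighter probe. Over all genes and transcripts 18.1% were called higher and 21.9% lower by the same rule (limma, Benjamini-Hochberg adjusted p, threshold 0.05). The median log2 ratio of the 8 genes was 0.45, against -0.02 over all genes. The erythroid first enzyme Alas2 had the highest ratio, 2.06-fold, and Uros came next at 1.66-fold. By probe, 8 of 10 were called higher and none lower, against 18.8% and 20.7% of all kept probes, and 8 of 10 had ratios above 0 on both arrays, against 36.9%. Alas2 and Uros were called higher with a ratio of at least 1.5-fold, as were 1.44% of all kept probes. The computed ratio of Alad also passed that mark, but its control signal was saturated, so it is not counted as a rise. Saturated probes were not taken out of the 1.44%. The control signal was flagged as saturated for Alad on both arrays and for Cpox on array 2. Since the true control signal may be higher than the scanner could read, neither the size nor the direction of their change is settled, and no fold is given. Among the 6 genes whose control was not flagged as saturated on either array, 5 were called higher. Urod was among them, though some of its control pixels were saturated. With probes flagged in either channel left out of the fit, 17.7% of 23990 probes were called higher, a share of probes and not of genes.

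The direction of these calls depends on how the channels are scaled. Before normalization the red control channel was the brighter one for nearly all members. The signal above local background was higher in the ETO2 siRNA channel on both arrays for 1 of the 10 probes, that of Alas2. Loess sets the ratio to about 0 at each brightness, and the scanner software's processed signals have their own dye normalization. Under it 5 of the 8 genes were higher and none lower (5.78% and 5.52% of all kept probes). These 5 include Alad, whose control was saturated. With each array centred on its median instead of by loess, the middle of all kept probes moved from -0.01 to -0.29. Under that scaling 2 of the 8 genes, Alas2 and Uros, were higher and 3 lower, against 3.11% and 63.7% of kept probes. Relative to the moved median, 6 of the 8 genes still lay above it.

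**Figure D1:**
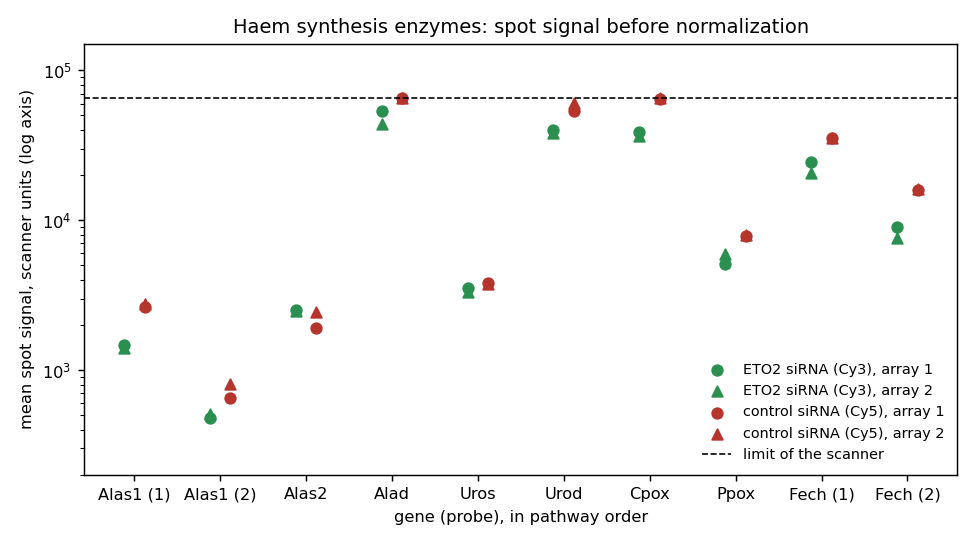
Mean spot signal of each haem synthesis probe before normalization, in scanner units on a log axis, for the ETO2 siRNA channel (green) and the control siRNA channel (red) on array 1 (circles) and array 2 (triangles); the dashed line is the scanner's limit. Both control signals of Alad lie on the limit and those of Cpox at or just under it, and only Alas2 has ETO2 siRNA signals at or above its control signals on both arrays.

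In the plot of unnormalized spot signals the control channel runs into the scanner's limit at Alad and Cpox and comes near it at Urod. The heights of different probes in it are not transcript levels, since probes bind with different strength.

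The first step is where the 2 forms of the same enzyme parted. The Alas2 probe (NM_009653) read 2517 and 2462 units after ETO2 siRNA against 1919 and 2456 after control siRNA. After normalization the log2 ratio was 1.17 on array 1 and 0.92 on array 2, or 2.24-fold and 1.89-fold. The mean was 1.04 ± 0.17 (SD, n = 2), 2.06-fold, with a limma adjusted p of 3.02e-08. Both arrays were high, and the lower of them lay above both arrays of every other member. Counted from the highest, Alas2 was at rank 41 of the 24430 kept probes. The log2 ratio stayed above 0 and called in every setting that was tested, including 0.57 under median centring (adjusted p = 1.33e-12).

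The brighter Alas1 probe (NM_020559) read 1480 and 1394 units after ETO2 siRNA against 2643 and 2746 after control siRNA. Its log2 ratio was -0.06 on array 1 and -0.07 on array 2, a mean of -0.07 ± 0.0089, or 95.4% of control (adjusted p = 0.426). The dimmer Alas1 probe read 482 and 506 against 653 and 805 units, and its log2 ratio was 0.23 and 0.15. Its mean of 0.19 ± 0.06, 1.14-fold, was called higher (adjusted p = 0.0282). The brighter probe was lower than the dimmer one by a log2 difference of -0.30 on array 1 and -0.22 on array 2, so the probes of Alas1 disagreed by more than the spread between arrays. The call of the dimmer probe was lost on the processed signals, where both probes stood at 0.04 with adjusted p of 0.756 and 0.739. Under median centring the brighter probe was called lower at -0.53 and the dimmer at -0.18, that is -0.24 below and 0.11 above the median of all kept probes.

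Set against each other within an array, Alas2 exceeded the brighter Alas1 probe by a log2 difference of 1.23 and 0.99. The mean was 1.11 ± 0.16 (SD, n = 2), a 2.16-fold ratio of ratios. Against the dimmer Alas1 probe the difference was 0.93 and 0.77, mean 0.85 ± 0.11. Every one of these values lay above 0, and no test is given, because a sign permutation of 2 arrays cannot go below a two-sided p of 0.5. On the processed signals the difference was 0.94.

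The probe sequences are shown because the contrast between these paralogues rests on their telling the transcripts apart. They are printed 5′ to 3′ as the array files give them. Of the Alas2 probe bases 1 to 42 are shown, ending in capitals with the TAA stop triplet of its first reading frame, and the other probes are shown whole.
Alas2, A_51_P327451: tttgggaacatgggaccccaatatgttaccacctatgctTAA
Alas1, A_51_P128929: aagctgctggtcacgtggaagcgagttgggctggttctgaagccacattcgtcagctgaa
Alas1, A_52_P129756: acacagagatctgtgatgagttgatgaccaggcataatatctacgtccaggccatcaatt
The brighter Alas1 probe shared no run longer than 6 bases with the Alas2 probe and matched it at best at 25 of 55 bases without gaps. For the dimmer probe these were 5 bases and 22 of 60. The probes were compared with each other and not with the transcripts. These matches therefore cannot show whether a probe also binds the transcript of the other gene, which was not tested.

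Of the cytosolic enzymes, Uros and Urod were higher on both arrays with loess, and under median centring Uros alone was called higher. For Alad the control signal was saturated. Alad, the zinc enzyme that makes porphobilinogen (NM_008525), read 53173 and 44174 units after ETO2 siRNA, while its control spots stood at the limit with 65221 units on both arrays. Of the pixels of the control spots 98.1% and 98.0% were saturated. The log2 ratio was 0.64 and 0.59, mean 0.61 ± 0.03 (adjusted p = 2.78e-06), but a true control signal above the scanner's limit would lower it by an unknown amount. The arrays therefore settle neither how far nor which way Alad moved. Its ratio also depends on the normalization, at 0.75 on the processed signals and -0.05 under median centring.

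Uros, the synthase that closes the ring (NM_009479), had signals far from the limit on both channels. It read 3547 and 3330 units after ETO2 siRNA against 3831 and 3753 after control siRNA. The log2 ratio was 0.69 on array 1 and 0.78 on array 2, or 1.62-fold and 1.71-fold. The mean of 0.73 ± 0.06 was 1.66-fold, with an adjusted p of 4.86e-07 and rank 179 of the kept probes. Like Alas2 it kept its direction and its call in every setting tested, with 0.23 under median centring (adjusted p = 0.00461). Its probe is shown because the second highest ratio rests on it alone.
Uros, A_51_P257832: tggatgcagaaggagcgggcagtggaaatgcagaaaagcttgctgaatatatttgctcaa

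Urod, the decarboxylase that trims the ring (NM_009478), read 40192 and 37960 units after ETO2 siRNA against 53332 and 60303 after control siRNA. The control spots were not flagged, but 1.92% and 17.7% of their pixels were saturated. The log2 ratio was 0.51 and 0.48, mean 0.50 ± 0.03, 1.41-fold (limma adjusted p = 2.20e-05). The saturated control pixels may make this fold too high. The arrays were close together and both above 0, and under median centring the ratio was -0.16.

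The later mitochondrial enzymes had mean log2 ratios of at most 0.41 with loess, and all 3 fell below 0 under median centring. Cpox, the oxidase of coproporphyrinogen (NM_007757), read 38670 and 36238 units after ETO2 siRNA against 64382 and 65115 after control siRNA, with 50% and 70% of the control pixels saturated. Its log2 ratio was 0.19 and 0.30, mean 0.24 ± 0.08 (adjusted p = 0.00731), and its direction is unsettled too, since the control was flagged as saturated on array 2. The call was lost on the processed signals, where the ratio was 0.30 (adjusted p = 0.0854), and with a normexp offset of 0, where it was 0.19 (adjusted p = 0.102), and under median centring Cpox was called lower at -0.41.

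Ppox, which makes protoporphyrin (NM_008911), read 5131 and 5957 units after ETO2 siRNA against 7795 and 7960 after control siRNA. The log2 ratio was 0.23 on array 1 and 0.59 on array 2. The mean was 0.41 ± 0.25, 1.33-fold (adjusted p = 0.000695). Both arrays were above 0 but far apart, and Ppox had the widest spread of the 10 probes. On the processed signals its ratio was 0.48 with an adjusted p of 0.0541, and under median centring the ratio was -0.13.

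Fech, which inserts iron into protoporphyrin and itself holds an iron-sulphur cluster (NM_007998), gave different answers on its probes. The brighter probe read 24449 and 20582 units after ETO2 siRNA against 35193 and 35502 after control siRNA. Its log2 ratio was 0.38 and 0.32, mean 0.35 ± 0.04, 1.27-fold (adjusted p = 0.000538). The dimmer probe read 9028 and 7661 units against 15816 and 16105, and its log2 ratio was 0.05 and -0.03, mean 0.01 ± 0.06 (adjusted p = 0.925). The brighter probe exceeded the dimmer by 0.32 and 0.35, several times the spread of either between arrays. With the probes averaged the log2 ratio of Fech was 0.18 (adjusted p = 0.0265 over genes), and under median centring the probes stood at -0.28 and -0.56.

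**Figure D2:**
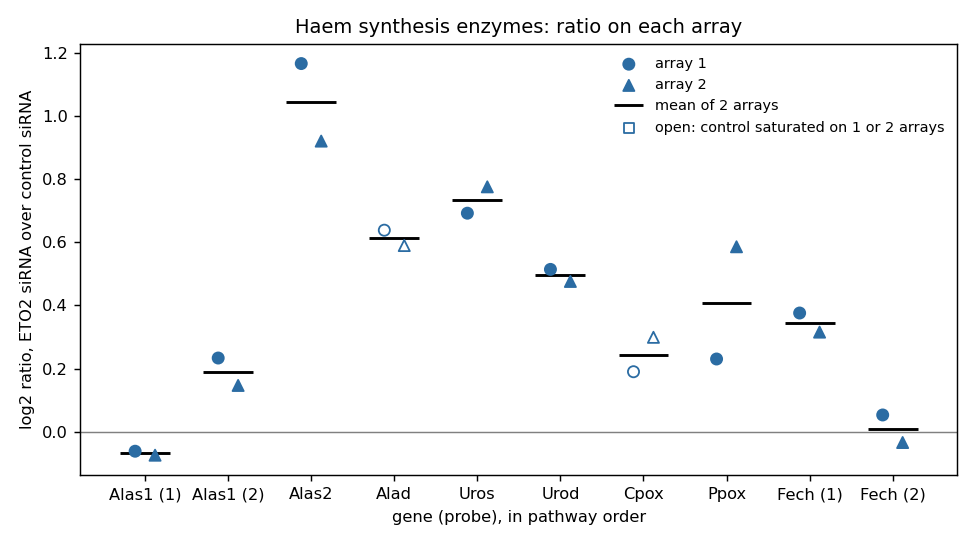
Log2 ratio of ETO2 siRNA over control siRNA after loess for each haem synthesis probe in pathway order, on array 1 (circles) and array 2 (triangles), with the mean of 2 arrays as a line; open symbols mark probes whose control spot was saturated on 1 or 2 arrays. Alas2 lies highest at 1.17 and 0.92, the brighter Alas1 probe just below 0 on both arrays, and Ppox shows the widest gap between arrays; under median centring in place of loess only Alas2 and Uros lie above 0.

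In the plot of ratios by array the order of the genes by mean was Alas2, Uros, Alad, Urod, Ppox, Fech, Cpox and Alas1. The arrays of Alas2 and Uros did not overlap with each other or with any member below them. Those of Ppox overlapped with those of Urod, Cpox, the brighter Fech probe and, narrowly, the dimmer Alas1 probe. Ppox therefore did not differ from these beyond the spread. This order is a description and was not tested, and the places of Alad and Cpox are unsettled because of their saturated controls.

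Compared with probes of like brightness, 2 members stood outside the usual range. The kept probes were split by mean normalized signal into 20 bins, and in the bin that holds Alas2 the 5th to 95th percentile of the log2 ratio ran from -0.44 to 0.40. In the bin of Uros it ran from -0.41 to 0.41, and the means of Alas2 and Uros, 1.04 and 0.73, lay above these ranges. The brightest bin, of 1222 probes, ran from -0.52 to 0.87 with a median of 0.02 and held Alad, Urod, Cpox and the brighter Fech probe, all inside that range. Ppox, Alas1 and the dimmer Fech probe also lay inside the ranges of their bins.

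**Figure D3:**
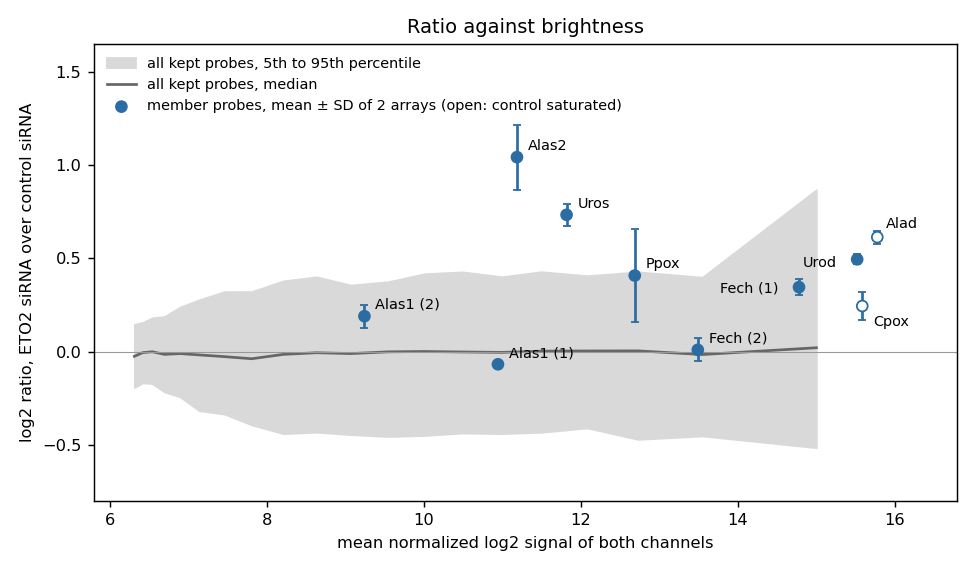
Log2 ratio of ETO2 siRNA over control siRNA after loess (mean ± SD of 2 arrays) against the mean normalized log2 signal of both channels for the haem synthesis probes; the band is the 5th to 95th percentile and the line the median of all kept probes in 20 bins of brightness. Alas2 and Uros lie above the band, while Alad, Urod, Cpox and the brighter Fech probe, Fech (1), lie in the brightest bin, where the band reaches 0.87; the ratios of all probes but Alas2 and Uros fall below 0 under median centring.

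The plot of ratio against brightness shows the place of each probe in the scanner's range, not its transcript level. Of the kept probes 99.5% were dimmer than Alad and 74.5% were dimmer than Alas2.

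**Figure D4:**
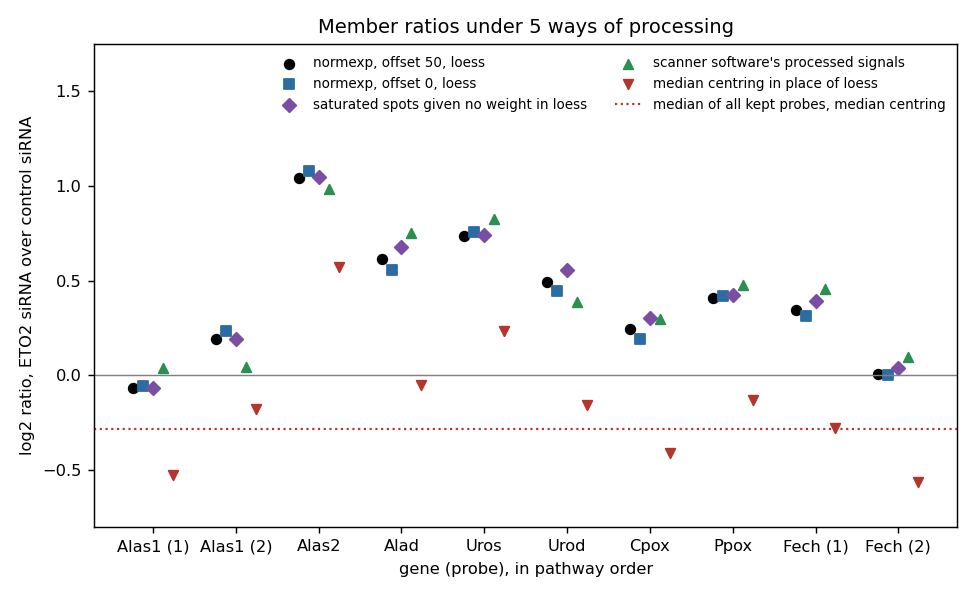
Mean log2 ratio of ETO2 siRNA over control siRNA for each haem synthesis probe under 5 ways of processing; the dotted line is the median of all kept probes under median centring, -0.29. Alas2 and Uros lie above 0 under all 5; the other probes fall below 0 under median centring, and relative to the dotted line Alas1 (1), Cpox and Fech (2) lie below it.

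The plot of ratios by processing shows that median centring moved every probe down, while the other 4 settings lay closer to one another. Relative to the median of all kept probes under that setting, Alas2 stood at 0.86, Uros at 0.52, Alad at 0.24, Ppox at 0.15, Urod at 0.13 and the brighter Fech probe at 0.01. Cpox stood at -0.13. With saturated spots given no weight in the loess curve, a setting chosen after seeing the data, Alad was at 0.68, Urod at 0.55 and Cpox at 0.30, and the same number of genes, 7, were called higher, against 19.2% of kept probes.

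Upstream sequence is printed for members with and without a GATA motif, because GATA-1 is the factor switched on in all these cells. The bases shown are the 250 before the annotated start in RefSeq's promoter table (GRCm38.p6), which held 7 of the 8 members, all but Fech. The motif searched on both strands was AGATAA or AGATAG or TGATAA or TGATAG, and its letters as they read on the printed strand are in capitals.
Alas2 promoter, GRCm38.p6 chrX:150547167-150547416, plus strand: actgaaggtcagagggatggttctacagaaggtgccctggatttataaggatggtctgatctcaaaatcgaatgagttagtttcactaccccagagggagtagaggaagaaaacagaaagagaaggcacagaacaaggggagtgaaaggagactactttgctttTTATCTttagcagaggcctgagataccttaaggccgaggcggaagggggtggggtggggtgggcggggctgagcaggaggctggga
Cpox promoter, GRCm38.p6 chr16:58669958-58670207, plus strand: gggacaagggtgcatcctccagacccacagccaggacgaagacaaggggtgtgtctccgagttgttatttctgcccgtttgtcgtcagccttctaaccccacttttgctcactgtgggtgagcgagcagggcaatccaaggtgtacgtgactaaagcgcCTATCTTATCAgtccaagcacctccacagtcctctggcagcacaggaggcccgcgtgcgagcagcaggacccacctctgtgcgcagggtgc
Alas1 promoter, GRCm38.p6 chr9:106247955-106248204, minus strand: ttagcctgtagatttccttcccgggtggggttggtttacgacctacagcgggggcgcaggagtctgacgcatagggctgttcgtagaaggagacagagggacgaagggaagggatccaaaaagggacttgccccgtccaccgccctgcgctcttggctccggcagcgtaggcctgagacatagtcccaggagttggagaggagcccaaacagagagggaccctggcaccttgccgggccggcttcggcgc
The window of Alas2 held 1 match, at -86 to -81 from the start. Cpox held 2 overlapping matches, at -91 to -86 and -86 to -81. Of the Uros windows, which belong to 2 annotated starts, 1 held matches, at -205 and -68. No match stood in either window of Alas1 or in those of Alad, Urod and Ppox. Of all entries there, 26.5% of the 32851 promoters held at least 1 match in the same length, so that a match in this window is common. Matches are a description of the letters, and no binding was measured.

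The genes whose log2 ratios lay nearest to those of Alas2 on the 2 arrays, among 12354 genes with an ordinary symbol and no saturated channel, were Ak7 (1.12 and 0.92), Hemgn (1.15 and 1.05) and Nlrp6 (1.24 and 1.04). Hemgn encodes an erythroid nuclear protein and Ak7 an adenylate kinase. Their distances from Alas2 were 0.05, 0.13 and 0.15 log2 units, and a likeness over 2 values is given as a description.

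Genes around the pathway moved unevenly. Of 20 genes of mitochondrial import, iron-sulphur assembly and porphyrin transport, 11 were higher, 5 lower and 4 not called, with a median of 0.23. Over all genes 18.1% were higher and 21.9% lower, with a median of -0.02, so the share lower was near that of all genes. On the processed signals 4 were higher and 1 lower (5.78% and 5.52% of all kept probes). Under median centring 1 was higher and 13 lower (3.11% and 63.7% of all kept probes). Slc25a37 (mitoferrin-1), which brings iron into the mitochondria of erythroid cells, read a log2 ratio of 1.80 and 1.82 on the arrays. Its mean of 1.81 ± 0.01 was 3.51-fold (adjusted p = 5.02e-11), above every haem synthesis enzyme, and its second probe gave 0.94. Slc25a37 was called higher under each scaling, down to 1.18 under median centring. Slc25a39, a carrier linked to mitochondrial glutathione, stood at 0.69 ± 0.06, 1.61-fold (adjusted p = 1.01e-06). Glrx5, an iron-sulphur assembly factor, stood at 0.77 with its control saturated on both arrays, which gives no fold.

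Among the same genes Snx3, a sorting nexin that recycles the transferrin receptor, was lower at -0.71 ± 0.14, 61.2% of control (adjusted p = 1.30e-06). It was called lower under each scaling. Fdx1 (ferredoxin 1) stood at -0.27, Nfs1 (the cysteine desulphurase) at -0.24, Slc25a28 (mitoferrin-2) at -0.19 and Tmem14c (a porphyrinogen carrier) at -0.18, and these calls were lost on the processed signals. There Fdx1 stood at -0.23, Nfs1 at -0.10, Slc25a28 at -0.28 and Tmem14c at 0.17. The mitoferrins thus had opposite signs with loess, as did the ALA synthases on their brighter probes, of which only that of Alas2 was called.

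Of 9 genes that supply glycine and succinyl-CoA, the substrates of ALA synthase, 2 were higher, 2 lower and 5 not called, with a median of 0.06. These shares are near the 18.1% higher and 21.9% lower over all genes. Under median centring 1 was higher and 7 lower, against 3.11% and 63.7% of all kept probes. Slc6a9, the glycine transporter GlyT1, stood at 0.81 ± 0.0054, 1.76-fold (adjusted p = 1.34e-07), and kept its call under each scaling. Shmt2, the mitochondrial serine hydroxymethyltransferase, stood at 0.50 ± 0.02 with loess and at -0.12, not called, under median centring. Dld, a subunit of the 2-oxoglutarate dehydrogenase complex, stood at -0.26, while its other probes gave 0.01 and 0.15. Suclg1, a subunit of succinyl-CoA ligase, stood at -0.19, and it and Dld were not called on the processed signals, at -0.02 and -0.05.

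Of 8 genes of haem export and breakdown, Flvcr2 did not pass the brightness filter. Of the 7 measured, 3 were higher, 3 lower and 1 not called, with a median of 0.04, against 18.1% higher and 21.9% lower over all genes. On the processed signals 2 were higher and none lower (5.78% and 5.52% of all kept probes), and under median centring 1 was higher and 5 lower (3.11% and 63.7%). Blvra (biliverdin reductase A) stood at 0.68 ± 0.02 on its brighter probe and at 0.09, not called, on the other. Abcg2, an exporter of porphyrins, stood at 0.58 ± 0.17 and at 1.08 on its other probe, and Flvcr1, a haem exporter, stood at 0.35 on both probes. Hmox1, the inducible haem oxygenase, was lower at -0.50 ± 0.08, 70.8% of control (adjusted p = 2.68e-05), with no call on the processed signals at -0.20. Slc48a1 (a haem transporter of lysosomes) stood at -0.31 and Hmox2 at -0.23.

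In a list of 8 regulators around haem and iron sensing, Ppargc1a and Nrf1 among them, none was higher, 4 were lower and 4 were not called. The median of the list was -0.13, and over all genes 18.1% were higher and 21.9% lower. None of the 8 was called on the processed signals. Under median centring 6 were lower and none higher, against 63.7% and 3.11% of all kept probes. Aco1, which encodes iron regulatory protein 1, the factor that binds the Alas2 message when iron is short, stood at -0.42 ± 0.04, 74.5% of control (adjusted p = 9.42e-05), and at -0.05 on its other probe. Bach1, a haem-binding repressor of Hmox1, read -0.06 and -0.56, mean -0.31 ± 0.36. Nr1d1 (a haem-binding nuclear receptor) stood at -0.23 on its brightest probe and at 0.01 and -0.14, neither called, on the others. Eif2ak1, the haem-regulated kinase of translation, stood at -0.17 on its brightest probe and at 0.39, called higher, on another. Nrf1 was not called on its brighter probe, at -0.08, and was called higher on the other, at 0.19 (adjusted p = 0.0296). The genes that turn haem into haem a and haem c, Cox10, Cox15 and Hccs, were not called, at 0.04, -0.11 and 0.04.

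**Figure D5:**
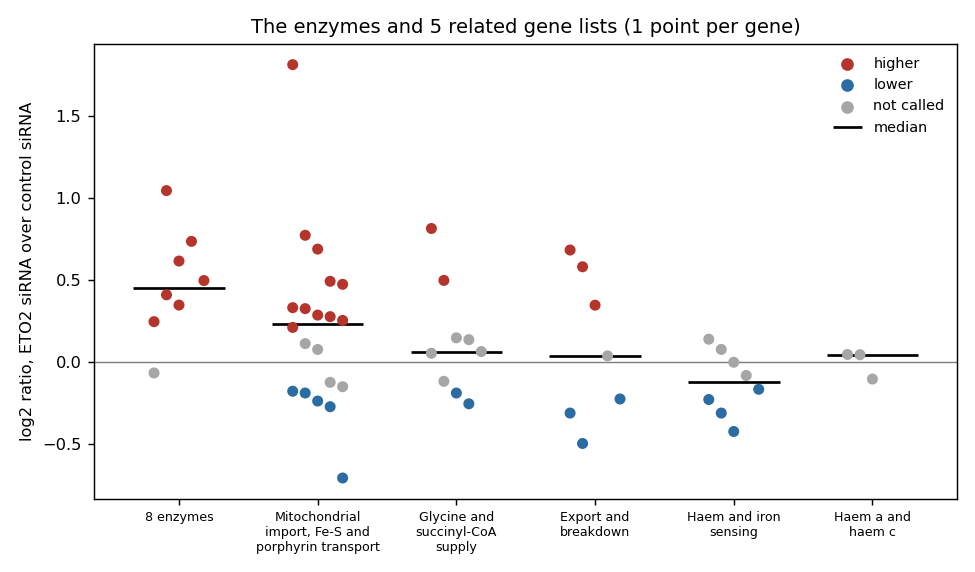
Log2 ratio of ETO2 siRNA over control siRNA after loess for the 8 haem synthesis enzymes and 5 lists of related genes, 1 point per gene (mean of 2 arrays, brightest kept probe), coloured by call at an adjusted p of 0.05, with the median as a line. The enzymes have a median of 0.45 and 7 of 8 called higher, while the lists range in median from -0.13 to 0.23. Alad, Cpox and, in the transport list, Glrx5 are coloured as higher although their controls were flagged as saturated on 1 or 2 arrays. Under median centring all 6 medians fall below 0.

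In the plot of the enzymes beside the related lists, 1 gene outside the pathway, Slc25a37, lies above Alas2. The lists' counts and medians are descriptions, and no test of the lists against other genes was made.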

How the data were processed

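Spot and background intensity values were read by Agilent Feature Extraction 9.1.3.1, per the file headers, on a linear scale without normalization. The deposited processed intensity was background-subtracted and dye-normalized by that software, and gave the deposited log10 ratio (red over green). The authors' deposited log10 table holds the same ratios, rounded, with a median of 0, so its scale and direction are known. Software flags for saturation, outliers and signal well above background were used as deposited. A genome build for the probes is not given in the sources available here, and no probe coordinates are printed.

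Mean signals were corrected with the local median background by normexp (offset 50) and normalized by loess in limma 3.58.1 (R 4.3.3), with control spots at weight 0. Outlier spots (10 and 4) were left out and spots of a probe averaged. Probes with at least 1 channel that was itself well above background on both arrays were kept (59.3%). Log2 ratios, always ETO2 siRNA over control siRNA (the deposited sign turned), were tested against 0 with lmFit and eBayes, two-sided, Benjamini-Hochberg adjusted over all kept probes, threshold 0.05. With 1 residual and 14.4 prior degrees of freedom per probe, p-values depend on the variance shared between probes, and the number of arrays limits the precision. The steps were tested on simulated data. The brightest kept probe stands for a gene, and names were updated through RefSeq's gene table (GRCm38.p6). Promoter sequences are RefSeq's, and probe sequences come from the array files.

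The members, lists, tests and alternatives were chosen with earlier results of these data known. Text names all members, Cbfa2t3, the 3 genes nearest to Alas2, and from each list up to 4 called genes with the largest change plus any called against the list's median. Alternatives were other offsets, scalings, brightness filters, variance priors and probe rules, saturated probes left out, each array alone, and, added after seeing the data, loess with saturated spots at no weight.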

Additional observations from a re-analysis of the deposited data

How the results depend on the processing

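Each array sets both RNAs side by side, so the test of the ratios within arrays was itself the paired analysis. No further block remained to be fitted. With 1 array left there is no test: Cbfa2t3 ranged from -0.46 to -0.39 and Alas2 minus Alas1 from 0.99 to 1.23. The processed signals and the deposited ratio table were both dye-normalized by the scanner software. In each, 5 member probes were called higher, Alad with its saturated control among them, and 7 related genes were higher and 1 lower. Cbfa2t3 stood at -0.37 in both (limma adjusted p = 0.0508 and 0.0524). Alas2 minus Alas1 stood at 0.94 in both, and the brighter Alas1 probe at 0.040 in both. Over all kept probes 1411 were then higher and 1349 lower on the processed signals, and 1329 and 1257 in the deposited table, against 4581 and 5049 with loess.

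Under median centring 2 member genes and 2 member probes were higher and 5 member probes lower, 3 related genes were higher and 34 lower, and 760 of all probes were higher and 15561 lower. Under median centring the log2 ratio turned negative for Alad (-0.049), the dimmer Alas1 probe (-0.18), Urod (-0.16), Cpox (-0.41), Ppox (-0.13) and both Fech probes (-0.28 and -0.56). With a normexp offset of 0, 8 related genes were lower in place of 14. Averaged over its probes, Alas1 stood at 0.061. The cause of these changes was not tested, beyond the shift of all probes to -0.29 under median centring. Alas2 ranged from 0.57 to 1.17 and Uros from 0.23 to 0.83 over all alternatives, and both kept their call wherever there was a test.

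Signal limits the upper end: saturated controls leave the size and direction of Alad and Cpox unsettled. With 2 arrays of 1 dye orientation, a dye effect of a probe cannot be told apart from the siRNA.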
